A study of Mus musculus with 8 samples.

Results

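Myostatin and the activins are secreted ligands of the transforming growth factor beta (TGF-β) family, and the genes described here are 10 members of the pathway through which they act in skeletal muscle. The members were Mstn and Gdf11 among the ligands, Acvr2a, Acvr2b and Acvr1b among the receptors, Fst, Fstl3 and Fstl1 among the follistatin-like proteins, and Smad3 and Smad7 among the signal transducers. They were chosen from 47643 genes of one expression table with earlier results of the same genotype comparison in view, so their differences between genotypes are given as a description and carry no test of their own. All 10 were matched to 1 row of the table each.

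Myostatin is made mainly by muscle fibers and limits muscle mass. It is secreted bound to its own propeptide, which has to be cut before the ligand can act. The free ligand, like activin and the closely related Gdf11, binds the type II receptors Acvr2b and Acvr2a, which then recruit and phosphorylate a type I receptor such as Acvr1b (ALK4). The type I receptor phosphorylates Smad2 and Smad3, which enter the nucleus with Smad4. Follistatin (Fst) and Fstl3 bind these ligands outside the cell, and Smad7 blocks the receptor complex from within.

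The data were RNA sequencing of quadriceps muscle from 4 mice labelled Nup210+/+ and 4 labelled Nup210-/-, all of strain C57BL/6, with 1 library per mouse and no treatment stated for these samples. Nup210 encodes a transmembrane protein of the nuclear pore, and the knockout was described as a deletion of its floxed exon 2 by Hprt-driven Cre, so the loss is not restricted to muscle. The age and sex of the sequenced mice are not given in the sources used here. Levels are in TPM, the number of transcripts of a gene in a fixed total per library, corrected for transcript length, so levels of different genes can be set side by side. The number of reads behind a value is unknown, and the spread reported is that between mice.

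Nup210 itself, on chromosome 6 at 91013068 to 91116829 (GRCm38, minus strand), was not lower in the libraries labelled Nup210-/-. It measured 9.54, 10.8, 11.9 and 8.81 TPM there and 5.71, 10.1, 9.19 and 6.71 TPM in the libraries labelled Nup210+/+, with a log2 fold change of 0.44 and an adjusted p of 0.231 in limma. The gene-level value counts all exons and does not measure the deleted one. For this mouse line the study reported loss of Nup210 protein in muscle by immunoprecipitation and immunofluorescence. The RNA values do not show which of these 8 libraries lack it, so every direction below rests on the labels. Muscle markers (Acta1, Ckm, Mb, Tnnt3 and Myh4) summed to between 70034 and 80714 TPM and so were abundant in all 8 libraries. Replicate 2 of Nup210+/+ stood apart in carrying 355.4 TPM of granulocyte precursor genes (Elane, Mpo, Prtn3 and Ctsg), against 0.13 to 2.12 TPM in the other 7 libraries.

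Mstn lies on chromosome 1 at 53061640 to 53068079 (GRCm38, plus strand), and no other annotated gene shares its exons. The bases before its start are shown because Mstn was the 1 member past the adjusted p, a call lost under most other settings (below). They are the 250 bases upstream of the start in the RefSeq promoter table, build GRCm38.p6, chr1:53061390-53061639, plus strand, with each E-box (CANNTG, the letters that basic helix-loop-helix factors such as MyoD can bind, the same on both strands) in capitals.

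Mstn: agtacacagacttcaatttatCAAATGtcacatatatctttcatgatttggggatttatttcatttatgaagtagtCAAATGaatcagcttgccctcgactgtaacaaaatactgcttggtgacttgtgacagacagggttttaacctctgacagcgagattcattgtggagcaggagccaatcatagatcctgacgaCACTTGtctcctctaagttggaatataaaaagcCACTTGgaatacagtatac

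The window held 4 E-boxes, which begin 229, 174, 52 and 19 bases before the start, and none overlaps another. At least 1 E-box was present in 66.2% of the 32851 windows of this length in the table, and at least 4 in 3.84%. Of the 8 members in the table, Fstl3, Acvr1b and Gdf11 were the others with an E-box in this window. The MEF2 motif, searched by its name on both strands, was absent from the windows of all 8 and present in 2.92% of all windows. A match here is a match of letters and no measure of binding.

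Mstn was higher in every library labelled Nup210-/- than in any labelled Nup210+/+. It measured 77.5, 76.1, 71.8 and 69.3 TPM in Nup210-/- (73.7 ± 3.82, SD, n = 4) and 59.4, 49.9, 57.4 and 46.5 TPM in Nup210+/+ (53.3 ± 6.10, SD, n = 4). After scaling the libraries to each other, the log2 fold change of log2(TPM + 1) was 0.56 (SE 0.07), and it lay between 0.52 and 0.61 when each library in turn was left out. The 2 genotypes did not overlap, and the gap between them, from 59.4 to 69.3 TPM, exceeded the SD of either genotype. Without Nup210+/+ replicate 2, the library with the granulocyte genes, the log2 fold change was 0.53.

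Mstn is a product of muscle fibers, and the summed muscle markers were also higher in Nup210-/-, at 76323 to 80714 TPM against 70034 to 73320 TPM. All 5 markers had a positive estimate on scaled values, although with TPM as deposited Mb averaged 3178 TPM in Nup210-/- and 3234 TPM in Nup210+/+. In limma 2 were under an unadjusted p of 0.05, beside 14.2% of all genes, and 0 under an adjusted one. Per 1000 TPM of these markers, Mstn measured 0.889 to 1.01 TPM in Nup210-/- and 0.634 to 0.820 TPM in Nup210+/+. The genotypes were apart on this measure too, with a ratio of means of 1.29. Per 1000 TPM of the fiber type myosins Myh4, Myh1, Myh2 and Myh7, Mstn measured 6.07 to 7.16 TPM and 4.18 to 5.92 TPM, again without overlap. In bulk tissue a different number of cells of a type and a different amount of RNA per cell cannot be told apart.

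Gdf11, the paralog of Mstn on chromosome 10 at 128882295 to 128891718, was a low-abundance transcript in this muscle. It measured 4.17, 3.23, 4.97 and 3.74 TPM in Nup210-/- and 4.37, 2.91, 2.90 and 3.76 TPM in Nup210+/+. The genotypes overlapped and the log2 fold change was 0.24 (SE 0.16), or 0.15 without Nup210+/+ replicate 3. Mstn was 14.4 to 23.5 times as abundant as Gdf11 in Nup210-/- and 12.4 to 19.8 times in Nup210+/+. Of the activin subunits, Inhba averaged 0.505 TPM in Nup210-/- and 0.990 TPM in Nup210+/+, and Inhbb 0.628 and 0.953 TPM, and Mstn was the most abundant transcript among these 4 ligand genes in all 8 libraries.

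**Figure D1:**
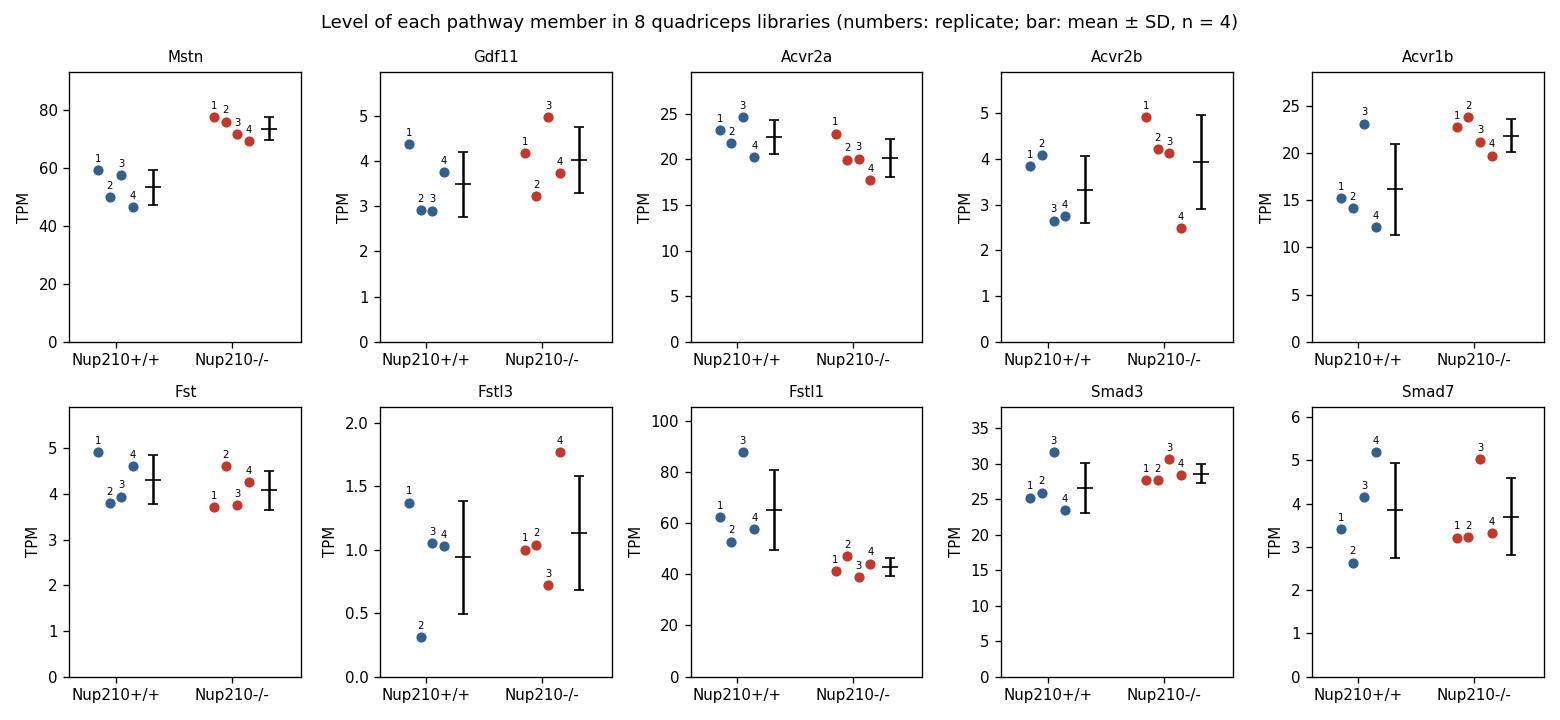
Level of each member in TPM (vertical axes, from 0) in the 8 libraries, with points numbered by replicate and the mean ± SD (n = 4) beside each genotype. Mstn is higher in all Nup210-/- libraries than in any Nup210+/+ library and Fstl1 is lower in all of them, whereas Acvr1b replicate 3 of Nup210+/+ lies among the Nup210-/- libraries.

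Of the receptors, the type I receptor Acvr1b had the largest estimate. It is on chromosome 15 at 101174067 to 101213684 (plus strand) and measured 22.7, 23.8, 21.2 and 19.7 TPM in Nup210-/- and 15.2, 14.2, 23.1 and 12.1 TPM in Nup210+/+ (21.8 ± 1.77 and 16.1 ± 4.80, SD, n = 4). The log2 fold change was 0.54 (SE 0.14). Replicate 3 of Nup210+/+ was as high as the Nup210-/- libraries on the deposited scale. It fell just below the lowest of them only after scaling, at 4.43 against 4.46 on the log2 scale, so the separation of the genotypes depends on the scaling. Leaving that library out gave a log2 fold change of 0.68, and leaving out replicate 2 of Nup210+/+ gave 0.49. Per 1000 TPM of muscle markers, Acvr1b measured 0.258 to 0.311 TPM in Nup210-/- and 0.165 to 0.330 TPM in Nup210+/+. The overlap came from replicate 3 of Nup210+/+ alone.

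The type II receptor Acvr2a, on chromosome 2 at 48814109 to 48903269, had one of the smallest differences of the set. It measured 22.8, 19.97, 20.1 and 17.7 TPM in Nup210-/- and 23.2, 21.8, 24.6 and 20.3 TPM in Nup210+/+, with a log2 fold change of -0.06 (SE 0.08). The estimate was -0.13 without replicate 1 of Nup210-/-, -0.02 without its replicate 4 and -0.15 with TPM as deposited. Its exons overlap those of Orc4 on the other strand. The libraries were directional, but whether strand was used in counting is not stated in the sources used here, so reads of the 2 genes may be mixed.

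Acvr2b, the type II receptor to which myostatin binds most tightly, was the scarcer of the pair. It is on chromosome 9 at 119402118 to 119434995 and measured 4.91, 4.21, 4.13 and 2.48 TPM in Nup210-/- and 3.84, 4.08, 2.65 and 2.75 TPM in Nup210+/+. The log2 fold change was 0.25 (SE 0.18), and the lowest library of all, at 2.48 TPM, was a Nup210-/- one. The estimate was 0.14 without replicate 1 of Nup210-/-, 0.40 without its replicate 4 and 0.14 without replicate 3 of Nup210+/+. Acvr2a was 4.65 to 7.14 times as abundant as Acvr2b in Nup210-/- and 5.34 to 9.29 times in Nup210+/+, with overlapping ranges.

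The ratio of the type I receptor to Acvr2a did separate the genotypes. Acvr1b divided by Acvr2a was 0.994 to 1.19 in Nup210-/- and 0.598 to 0.938 in Nup210+/+, a ratio that does not depend on how libraries are scaled. The nearest Nup210+/+ library was again replicate 3. Both genes belong to the members, so this difference is also a description.

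Among the follistatin-like proteins, Fstl1 had an estimate of the opposite sign to Mstn. Fstl1 is a secreted glycoprotein that shares the follistatin domain, is made by mesenchymal cells as well as muscle, and is not an established trap for myostatin. It is on chromosome 16 at 37776873 to 37836514 (plus strand). Fstl1 measured 41.3, 47.1, 38.9 and 44.3 TPM in Nup210-/- (42.9 ± 3.56, SD, n = 4) and 62.3, 52.9, 87.9 and 57.8 TPM in Nup210+/+ (65.2 ± 15.6, SD, n = 4). The genotypes did not overlap, the log2 fold change was -0.48 (SE 0.12), and the highest library was Nup210+/+ replicate 3. Without that replicate the log2 fold change was -0.36, and without replicate 2 of Nup210+/+ it was -0.57.

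Markers of fibro-adipogenic and connective tissue cells (Pdgfra, Col1a1, Col1a2, Col3a1, Dcn and Lum) had lower values beside Fstl1. All 6 had a negative estimate, the smallest for Lum (-0.18, SE 0.10) and Pdgfra (-0.23, SE 0.15). In limma 4 of the 6 had an unadjusted p under 0.05, beside 14.2% of all genes, and 0 an adjusted one. Their sum was 607.5 to 729.8 TPM in Nup210-/- and 773.0 to 1183 TPM in Nup210+/+, with its highest value in the same replicate 3 and its lowest in the same Nup210-/- replicate 3 as Fstl1. Per 100 TPM of these markers, Fstl1 measured 6.45, 6.45, 6.40 and 6.73 TPM in Nup210-/- and 6.97, 6.25, 7.43 and 7.47 TPM in Nup210+/+. On this measure the genotypes overlapped through replicate 2 of Nup210+/+ alone, and the ratio of means was 0.926. Dcn made up most of the sum in every library, so the measure is largely Fstl1 relative to Dcn. Pdgfra and Lum were highest in Nup210+/+ replicate 3 like Dcn, whereas the collagens were highest in Nup210+/+ replicate 4. Taken singly, the ratio of means was 0.657 for Fstl1 and 0.724 for Dcn. It was 0.626 to 0.678 for the collagens, 0.765 for Pdgfra and 0.816 for Lum. Leukocyte markers (Ptprc, Cd68, Adgre1, Csf1r and Itgam) also summed lower, at 18.8 to 22.0 TPM against 20.7 to 42.4 TPM, with all 5 estimates negative. Of these 5, 4 were under an unadjusted p of 0.05 in limma, beside 14.2% of all genes, and 0 under an adjusted one. The part of these leukocyte markers in the result was not tested.

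**Figure D2:**
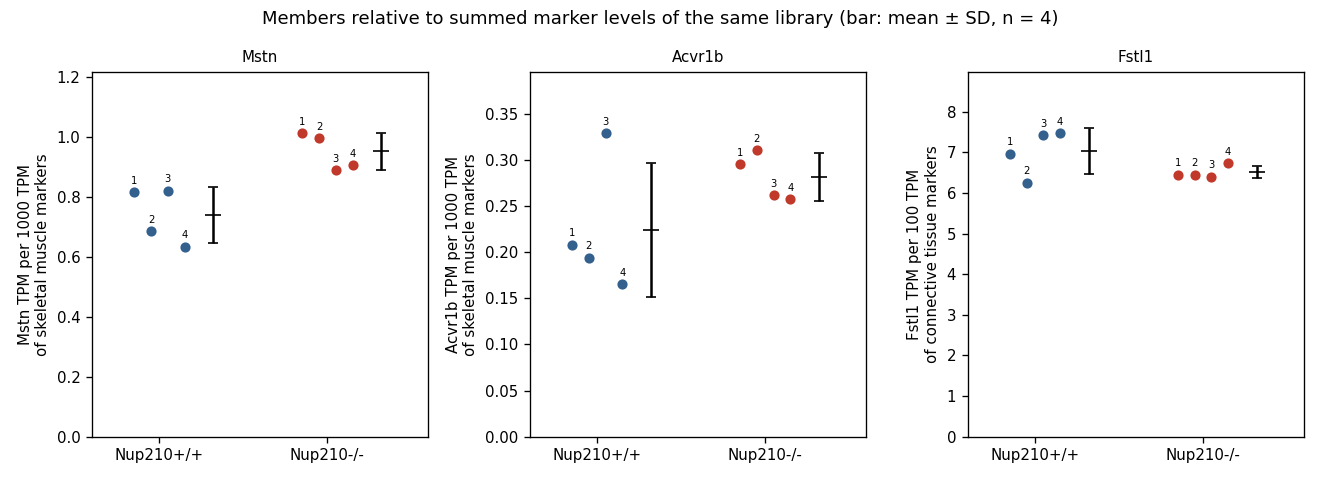
Mstn and Acvr1b per 1000 TPM of skeletal muscle markers and Fstl1 per 100 TPM of connective tissue markers (vertical axes, from 0), 1 point per library numbered by replicate, with the mean ± SD (n = 4). Mstn stays apart between genotypes, at 0.889 to 1.01 against 0.634 to 0.820. Acvr1b and Fstl1 overlap on these ratios, each through a single Nup210+/+ library, replicate 3 for Acvr1b and replicate 2 for Fstl1.

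The 2 established traps of the pathway, Fst and Fstl3, were low and did not separate the genotypes. Fst, on chromosome 13 at 114452290 to 114458951, measured 3.71, 4.61, 3.75 and 4.26 TPM in Nup210-/- and 4.92, 3.8, 3.94 and 4.61 TPM in Nup210+/+. Its log2 fold change was 0.01 (SE 0.12), and the sign turned to -0.06 with TPM as deposited. Its exons overlap those of Gm47040 on the other strand.

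Fstl3, on chromosome 10 at 79777272 to 79782630, was the scarcest member. It measured 1.00, 1.04, 0.720 and 1.77 TPM in Nup210-/- and 1.37, 0.310, 1.05 and 1.03 TPM in Nup210+/+, with a log2 fold change of 0.20 (SE 0.22). At this level the value moved with single libraries, from 0.02 without Nup210+/+ replicate 2 to 0.30 as each library was left out. Its exons overlap those of Prss57 on the other strand.

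Relative to the trap Fst, Mstn was higher in Nup210-/-, again a description, since both genes belong to the members. The other trap, Fstl3, was lowest in Nup210+/+ replicate 2, at 0.310 TPM. The ratio of Mstn to Fstl3 was highest in that library and overlapped between genotypes. The ratio of Mstn to Fst was 16.3 to 20.9 in Nup210-/- and 10.1 to 14.6 in Nup210+/+. The ratio of Mstn to Fstl1 was 1.57 to 1.88 in Nup210-/- and 0.653 to 0.952 in Nup210+/+, so Mstn was the more abundant of the 2 transcripts in all 4 Nup210-/- libraries and the less abundant in all 4 Nup210+/+ libraries.

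Smad3, the transducer of the pathway, was among the least variable of the members. It is on chromosome 9 at 63646767 to 63757994 (minus strand) and measured 27.7, 27.7, 30.6 and 28.4 TPM in Nup210-/- and 25.2, 25.9, 31.6 and 23.5 TPM in Nup210+/+. Replicate 3 of Nup210+/+ was the highest of all 8, so the genotypes overlapped. The log2 fold change was 0.20 (SE 0.06), and 0.11 with TPM as deposited. Per 1000 TPM of muscle markers the means were 0.369 and 0.368 TPM.

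Smad7, the inhibitory Smad that TGF-β family signals induce, did not differ in a constant direction. It measured 3.21, 3.23, 5.03 and 3.31 TPM in Nup210-/- and 3.40, 2.63, 4.14 and 5.19 TPM in Nup210+/+, with a log2 fold change of 0.04 (SE 0.19). The sign turned to -0.03 with TPM as deposited, and leaving out single libraries gave -0.09 to 0.20. Smad3 was 6.08 to 8.61 times as abundant as Smad7 in Nup210-/- and 4.52 to 9.85 times in Nup210+/+.

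All 10 members passed the filter of a mean of at least 0.5 TPM, which left 14229 genes. In limma, 1 of the 10 (Mstn) passed an adjusted p of 0.05, beside 0.112% of all genes tested. The adjusted p of Mstn in limma was 0.0490, and it missed the threshold in 13 of 19 alternatives, with 0.0932 for TPM as deposited, 0.105 without the intensity trend, 0.226 with the replicate block and 0.0552 to 0.159 when any 1 library was left out. At an unadjusted p of 0.05 the count was 4 (Mstn, Acvr1b and Smad3 higher, Fstl1 lower), beside 14.2% of all genes. The genotypes did not overlap on scaled values for 3 (Mstn and Acvr1b higher, Fstl1 lower), beside 9.38% of all genes. Since this contrast was in view when the members were selected, nothing is read from these counts. The estimate was positive for 8 members and negative for 2, with a median log2 fold change of 0.20 against -0.01 over all genes tested.

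**Figure D3:**
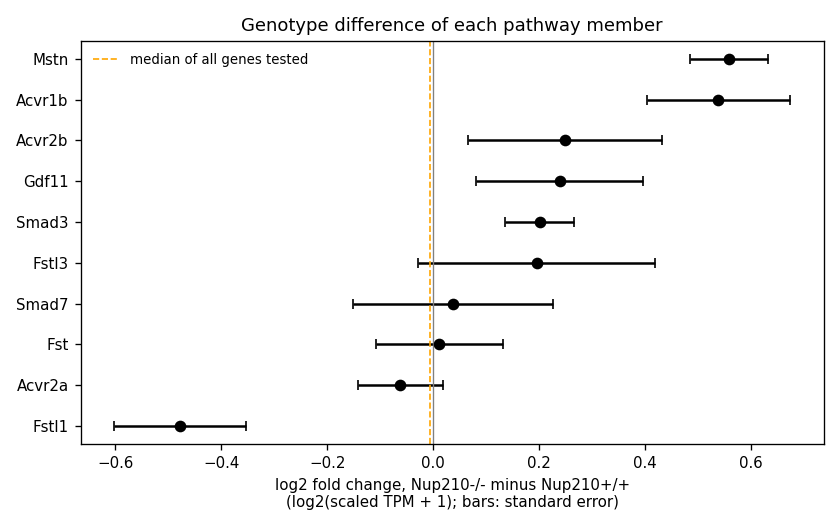
Log2 fold change (Nup210-/- minus Nup210+/+, horizontal axis, on log2(scaled TPM + 1)) of each member, with its standard error as the bar. Mstn (0.56) and Acvr1b (0.54) are the highest, Fstl1 (-0.48) is the lowest, and the other 7 lie between -0.06 and 0.25.

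The abundance of the members was not used to choose them, and their order was compared within libraries. By mean over the 8 libraries it was Mstn (63.5 TPM), Fstl1 (54.0), Smad3 (27.6), Acvr2a (21.3), Acvr1b (19.0), Fst (4.20), Smad7 (3.77), Gdf11 (3.76), Acvr2b (3.63) and Fstl3 (1.04). Mstn was above 90.1% of all genes tested and Fstl3 above 11.5%. The order thus fell into 5 members above 10 TPM, with 1 ligand, 1 receptor of each type, Fstl1 and Smad3, and 5 below 10 TPM, with the other ligand, both traps, Acvr2b and Smad7.

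Each of the 9 neighbouring pairs in that order was compared by a two-sided exact permutation test that flips the sign of the log2 ratio in each library. The order came from these same libraries, so which gene of a pair stood first was set by the values tested. Both genotypes were pooled. The smallest p that 8 libraries allow in this exact test is 0.00781. Of the 9 pairs, 4 differed after Benjamini-Hochberg adjustment, each with an adjusted p of 0.0176 in this exact test and the same direction in 8 of 8 libraries. Fstl1 exceeded Smad3 by a mean log2 ratio of 0.91, Smad3 exceeded Acvr2a by 0.36, Acvr1b exceeded Fst by 1.91 and Acvr2b exceeded Fstl3 by 1.19.

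The other 5 neighbouring pairs did not pass. Mstn exceeded Fstl1 in 4 of 8 libraries, those of Nup210-/-, with an exact adjusted p of 0.372. Acvr2a against Acvr1b and Fst against Smad7 each had an exact adjusted p of 0.316, with the first gene higher in 5 of 8 libraries. Smad7 against Gdf11 and Gdf11 against Acvr2b had exact adjusted p-values of 0.922 and 0.738.

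The spread of the members between mice of one genotype is given as a description. On the log2 scale the SD was larger in Nup210+/+ than in Nup210-/- for 8 of the 10 members, and for 62.8% of all genes tested. Acvr2a (0.04 in Nup210+/+ and 0.14 in Nup210-/-) and Acvr2b (0.26 and 0.32) were the exceptions. For Mstn the SD was 0.12 and 0.08, for Acvr1b 0.29 and 0.10, and for Fstl1 0.25 and 0.14. Smad3 had the smallest SD in Nup210-/-, at 0.05.

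Whether Mstn varied with other members between mice of one genotype was examined after removing the genotype means. Mstn was related to the other 9 members and to the 4 fiber type myosins, by permuting within genotypes (576 permutations). None of the 13 relations passed an adjusted p of 0.05 in this exact permutation test, and 1 had an unadjusted p under 0.05. That one was Acvr2a, with a Pearson r of 0.70 (exact p of 0.0104, adjusted p of 0.135) and a Spearman rho of 0.71 (exact p of 0.0347, adjusted p of 0.451). Without the 2 libraries farthest from the median of Acvr2a, r was 0.89. That value depends on which libraries these are. It was 0.40 with upper-quartile scaling, 0.35 when Nup210-/- replicate 4 had been left out first and -0.13 when Nup210+/+ replicate 3 had. When any other library had been left out first, it was 0.79 to 0.93. Without this trimming, r lay between 0.69 and 0.83 as each library in turn was left out.

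Fstl1 had an r with Mstn of 0.27 and Acvr1b one of 0.34 within genotypes, each with an adjusted p of 0.778 in the exact permutation test. The fiber type myosins Myh4, Myh1, Myh2 and Myh7 had r of -0.10, 0.11, 0.39 and 0.18.

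The genes with the pattern most like Mstn were taken from the 8387 genes with a mean of at least 5 TPM, as a description with no test. Within genotypes, over the 8 libraries with the genotype means removed, these were Tnrc6a (r = 0.97), Itgb1bp1 (0.97), Tpp2 (0.96), Heatr5a (0.96) and Psen2 (0.94). Their log2 fold changes lay between -0.11 and 0.10. Over the 8 libraries with the genotype difference kept, they were Sh3rf2 (r = 0.98), Rapgef3 (0.97), Ube2b (0.97), Tmem56 (0.96) and Zfp949 (0.96), with log2 fold changes of 0.17 to 0.60. The pair of lists shared no gene. All these correlations share the same 8 libraries.

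The rest of the pathway was described with a list of 74 other genes, of which 56 passed the filter and were tested. Past the adjusted p of 0.05 there were 0 in limma. At an unadjusted p of 0.05 there were 13, with 8 higher and 5 lower in Nup210-/-, which is 23.2% beside 14.2% of all genes. On scaled values the genotypes did not overlap for 3 of the 56 (5.36%, beside 9.38% of all genes). Estimates were positive for 26 and negative for 30, with a median log2 fold change of -0.03. The values below are those of 11 of the 13 and of the most abundant gene of each role, and none of them is a called difference.

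None of the 6 tested ligands other than Mstn and Gdf11 had an unadjusted p under 0.05, and the most abundant was Tgfb3, with means of 19.0 TPM and 18.6 TPM in Nup210-/- and Nup210+/+. Of the 7 tested genes for processing and latency, 1 had one. That was Bmp1, a protease of the family that cuts the myostatin propeptide, at 7.04 TPM against 10.1 TPM (log2 fold change -0.35, SE 0.13). Ltbp4, a latent TGF-β binding protein and the most abundant of them, was at 48.3 and 57.7 TPM (log2 fold change -0.15, and -0.09 to -0.23 as each library was left out).

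Of the 6 tested antagonists other than the members, 3 had an unadjusted p under 0.05. Dcn, a proteoglycan of the matrix that binds TGF-β and is one of the connective tissue markers above, was at 450.8 and 623.0 TPM (log2 fold change -0.34, or -0.21 without Nup210+/+ replicate 3). Wfikkn2, a secreted protein that binds myostatin, was at 5.78 and 4.98 TPM (log2 fold change 0.25).

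Of the 10 tested receptors and coreceptors other than the members, 2 had an unadjusted p under 0.05, and both were apart between genotypes on scaled values. Tgfbr2, the type II receptor for TGF-β itself, was at 15.04, 16.1, 14.9 and 13.8 TPM in Nup210-/- and 21.0, 20.3, 28.9 and 17.0 TPM in Nup210+/+, with a log2 fold change of -0.40 (SE 0.11). As with Fstl1, its highest library was the replicate 3 with the highest sum of connective tissue markers. The collagens in that sum were highest in Nup210+/+ replicate 4. Bmpr1a, a type I receptor for bone morphogenetic proteins and the most abundant of this role, was at 32.2 ± 0.332 and 30.1 ± 0.858 TPM (SD, n = 4). Its log2 fold change was 0.19, and 0.10 with TPM as deposited.

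Among the Smads, Smad2, which the same type I receptors phosphorylate, was at 9.35 and 8.28 TPM (log2 fold change 0.25, SE 0.10, or 0.17 with TPM as deposited), and the most abundant, the shared partner Smad4, was at 26.2 and 27.1 TPM. The estimate for Smad4 was 0.05 and changed sign to -0.04 with TPM as deposited. Of the 12 tested Smad partners and regulators, 1 had an unadjusted p under 0.05. It was Ppm1a, a phosphatase that acts on phosphorylated Smads, at 104.4 and 95.3 TPM (log2 fold change 0.23, or 0.14 without Nup210+/+ replicate 3 and 0.13 with TPM as deposited). The ubiquitin ligase Wwp1, the most abundant, was at 105.4 and 100.1 TPM (log2 fold change 0.17).

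Of the 10 target genes, 5 had an unadjusted p under 0.05 in limma, with 4 higher and 1 lower. That is 50%, the same share as among the antagonists, beside 14.2% of all genes. Fbxo32 (atrogin-1), a ubiquitin ligase of muscle atrophy, was at 90.0, 88.3, 116.1 and 95.6 TPM in Nup210-/- and 79.3, 57.3, 104.8 and 67.9 TPM in Nup210+/+, with a log2 fold change of 0.45 (SE 0.15). Trim63 (MuRF1), the other muscle atrophy ligase and the most abundant target, was at 222.4 and 193.5 TPM (log2 fold change 0.32, SE 0.11). In both, Nup210+/+ replicate 3 lay among or above the Nup210-/- libraries.

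Cdkn1a (p21), a cell cycle inhibitor, was at 19.6 and 14.6 TPM (log2 fold change 0.49, SE 0.14). Id2, a target of the bone morphogenetic protein branch, was at 3.18 and 4.44 TPM (log2 fold change -0.32, SE 0.13). For the 10 target genes together 4 estimates were positive and 6 negative, with a median log2 fold change of -0.08, so the targets did not share a direction. The list also holds targets of the bone morphogenetic protein branch, such as Id2, so this median is no measure of the myostatin branch alone.

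**Figure D4:**
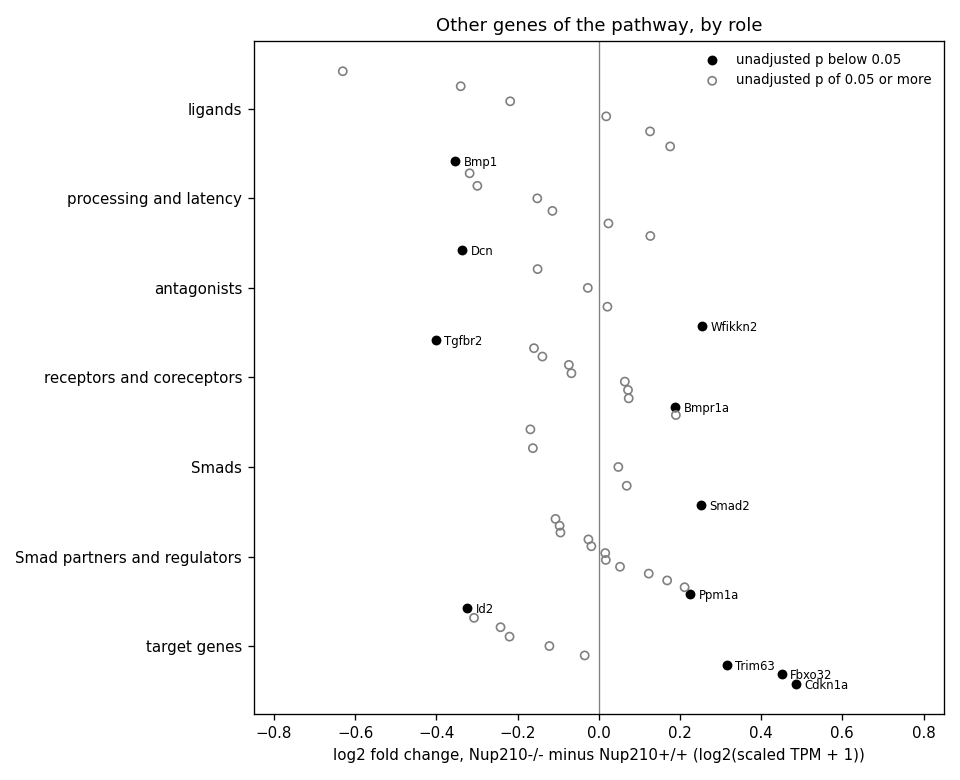
Log2 fold change (Nup210-/- minus Nup210+/+, horizontal axis) of 54 of the 56 other pathway genes tested, by role (vertical axis), 1 point per gene, filled and named where the unadjusted limma p was under 0.05. No gene passed an adjusted p of 0.05, and points lie on both sides of 0 in every role.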

How the data were processed

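Polyadenylated RNA from 8 quadriceps was made into directional libraries and sequenced single-end. Per the submitters' processing notes and the study's methods, reads were trimmed with cutadapt 2.3, aligned to mm10 with STAR 2.7.0d and quantified with RSEM 1.3.1 on Ensembl annotations. The authors deposited 1 table of TPM per gene and library (47643 genes), with replicates kept apart. TPM sum to the same total in each library and keep no depth, so a gene that takes more of a library lowers the rest, and no counting interval can be given. The DESeq2 test on estimated counts in the study's methods could not be run on TPM.

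Here TPM were divided by a median-of-ratios factor per library (0.936 to 1.12, over 15225 genes above 0 in all libraries), filtered to a mean of at least 0.5 TPM, and tested as log2(scaled TPM + 1) with limma 3.58.1 in R 4.3.3 (trend, genotype as the only term, Benjamini-Hochberg adjustment over 14229 genes, two-sided). A fold change on this scale understates the change of low genes. The test was checked on simulated data. Permutation tests and figures used Python 3.11.15.

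Groups and replicate numbers came from the sample labels. The members, the lists of other pathway genes and cell markers, and the tests were chosen with earlier results of these data known. The text names the members, in each role of the wider list the genes past an adjusted or unadjusted p of 0.05 and the most abundant one, the 5 genes most like Mstn on each measure, and Nup210. Of the other pathway genes, 2 are counted but not reported singly here. Marker genes, Inhba and Inhbb are named beside results they touch, the latter pair after their values were seen, as were the ratios to marker sums and the SD comparison. Of Ltbp4 and Itgam, with 2 rows each, the higher row was used. Myh4 is in both the muscle and the fiber type list, and Dcn in both the pathway and the connective tissue list. Coordinates are from GENCODE M21 on GRCm38 and the sequence from RefSeq, GRCm38.p6. The RefSeq table matched 8 of the 10 members, all but Fst and Smad7. No 2 libraries were the same, with at most 201 equal values between a pair. Alternatives were other pseudocounts, filters, scalings and variance models, library weights, the replicate number as a block, and leaving out each library.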

Additional observations from a re-analysis of the deposited data

Results flagged for a closer look

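In 6 of 72 groups of 4 libraries, 1 library stood apart by Dixon's ratio of its gap to the range of its group, where chance gives about 5% of groups, or 3.6. Among the members this was Smad7 in Nup210-/-, with a ratio of 0.945, where replicate 3 was at 5.03 TPM and the other 3 at 3.21 to 3.31 TPM. The other 5 were marker sums. The skeletal muscle markers were high in Nup210-/- replicate 3 (0.941), the same library as for Smad7, and low in Nup210+/+ replicate 3 (0.845), the library with the highest Fstl1, Smad3 and Tgfbr2. The fiber type myosins were low in Nup210-/- replicate 1 (0.869), satellite cell markers were high in Nup210-/- replicate 4 (0.850), at 3.26 TPM, and granulocyte precursor markers were high in Nup210+/+ replicate 2 (0.995), at 355.4 TPM. Whether these libraries moved the members was not tested beyond leaving each of them out.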

How the results depend on the processing

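The direction of Mstn, Acvr1b, Acvr2a, Acvr2b, Gdf11, Fstl1, Fstl3 and Smad3 was kept under all 19 alternatives, and that of Fst and Smad7 changed with the scaling and with single libraries. The adjusted p of Mstn, 0.0490 in limma, was close to the threshold and missed it in 13 of the 19. It was 0.0552 to 0.159 as each library was left out, so the call was lost in all 8 of these runs. Each of them has 1 library fewer, and the log2 fold change stayed between 0.52 and 0.61. The count of members past the adjusted p, 1, became 0 with any TPM above 0 kept, with TPM as deposited, with TPM rescaled without mitochondrial and the 20 highest genes, without the intensity trend, with the replicate block, and without any 1 library (0 to 0). The count over all genes, 16 (7 higher, 9 lower), was 1 with any TPM above 0 kept, 27 with a mean of at least 1 TPM, 10 with the rescaled TPM, 0 without the trend, 84 with library weights, 0 with the replicate block, and 0 to 10 as each library was left out. With 0 calls, 1952 genes without the trend and 1850 with the replicate block had an unadjusted p under 0.05. The split was 2 higher and 12 lower with TPM as deposited, and 2 and 8 with the rescaled TPM. Same-numbered libraries of the 2 genotypes did not deviate together (correlations of -0.03 to 0.09), so the numbers were not taken as pairs, and of the 4 Nup210-/- libraries 1 correlated best with its own number. The counts of differing neighbours, of relations with Mstn and of other pathway genes past the adjusted p were the same under every alternative run for them. The cause of these changes was not tested beyond the smaller or larger number of genes or samples that an alternative leaves. The depth of the libraries is unknown, and with it the counting error of Fstl3 and other low members.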

Other observations

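Satellite cell markers (Pax7, Myf5 and Chrdl2) summed to 2.13 to 3.26 TPM in Nup210-/- and 2.14 to 3.05 TPM in Nup210+/+, endothelial markers (Pecam1, Cdh5, Kdr and Tek) to 54.7 to 62.6 and 59.5 to 71.0 TPM, and adipocyte markers (Adipoq, Plin1 and Lep) to 68.6 to 103.7 and 62.1 to 187.7 TPM. All 3 sums overlapped between genotypes. The highest adipocyte sum was in Nup210+/+ replicate 3, the library with the highest Fstl1 and the highest connective tissue and leukocyte marker sums. Fiber type myosins summed to 10828 to 11416 TPM in Nup210-/- and 8692 to 11110 TPM in Nup210+/+.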
